A study of Mus musculus with 9 samples.

Results

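Serum of mice fed a high fat diet and of mice fed a normal diet was compared for its fragments of transfer RNA (tRNA). All samples are labelled week 20, and the wider study concerns atherosclerosis and SalB. The 3 samples whose treatment label is high fat diet and the 3 whose label is normal diet were used, 6 of the 9 samples in all, and the samples given SalB were left out. The normal diet titles carry a strain-like name, C57, and the series text calls that group the control. The high fat diet samples are the AS-model group, and the sources used here do not name the strain, genotype, age or sex of those mice. Diet and strain or genotype therefore cannot be told apart. The labels put the words week 20 in the genotype field and atherosclerosis in the cell type field of every sample, normal diet included. Nothing in them states that each replicate is its own animal, and every p-value below reflects only how much these 6 samples vary, which could be technical variation. The files hold only reads of 14 to 40 bases that align to tRNAs, so the serum label could not be set against markers of serum or blood cells, and fragments longer than 40 bases are not seen. tRNA reads numbered 43007, 31058 and 94724 in normal diet replicates 1, 2 and 3 and 55465, 28191 and 44415 in high fat diet replicates 1, 2 and 3, over 28240 distinct sequences. From the ranks in the read names, these reads were at most 2.81 to 4.33% of each library.

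tRNAs carry amino acids to the ribosome, and cut tRNAs leave defined fragments that circulate in blood. A cut in the anticodon loop, made by angiogenin among other nucleases, leaves long 5′ fragments known as 5′ tiRNAs, which are a main class of small RNA in mouse serum. Cuts in the T-loop leave 3′ fragments that end in CCA, the tail added to every mature tRNA, while internal fragments lack both ends. Trailers are cut from the 3′ end of the precursor, after the mature sequence. Each read was placed in the family (amino acid and anticodon) of the references it matched, and a joined name such as Leu-AAG/Leu-TAG means that the read matches both and cannot be split.

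The sequences below are named in the results or belong to sums named there, written 5′ to 3′ with T for U. Positions count from 1 at the first base of the mature tRNA on the study's references. Long 5′ fragments of 4 families and the Asp-GTC and Ala-AGC internal fragments come first. Capitals mark the anticodon in Asp-GTC 32 to 53 and the substituted last base in Gly-GCC 1 to 30.
Asp-GTC 1 to 32: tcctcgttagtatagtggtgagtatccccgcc
Asp-GTC 1 to 35: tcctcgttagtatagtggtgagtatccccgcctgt
Asp-GTC 32 to 53: ctGTCacgcgggagaccggggt
Pro-AGG/Pro-CGG/Pro-TGG 1 to 32: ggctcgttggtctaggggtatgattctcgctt
Glu-TTC 1 to 29: tcccacatggtctagcggttaggattcct
Gly-GCC 1 to 31: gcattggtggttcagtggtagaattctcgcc
Gly-GCC 1 to 30 with C30T: gcattggtggttcagtggtagaattctcgT
Ala-AGC 3 to 16: gggattagctcaaa

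The 3′ fragments, the Met-CAT internal fragment and the mitochondrial fragments follow, because the results name them or a sum that holds them. Not all are of small p, and mt-Ser-TGA 2 to 23 had too few reads to be tested. Capitals mark the CCA tail, the anticodon in Met-CAT or, where a substitution is named, the substituted base.
Leu-AAG/Leu-TAG 68 to 85: atcccaccgctgccaCCA
Gly-CCC/Gly-GCC 53 to 74: tcgattcccggccaatgcaCCA
Gly-CCC/Gly-GCC 53 to 74 with A56T: tcgTttcccggccaatgcacca
Gly-CCC/Gly-GCC 53 to 74 with C73T: tcgattcccggccaatgcacTa
Glu-TTC 54 to 75 with A75G: tcgactcccggtgtgggaaccG
Met-CAT 34 to 54: CATaatctgaaggtcctgagt
mt-Ser-GCT 1 to 20: aagaaagattgcaagaactg
mt-Ser-TGA 1 to 21: gagaaagacatataggatatg
mt-Ser-TGA 2 to 23: agaaagacatataggatatgag

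Nuclear tRNAs are multicopy genes, so a fragment has no single place in the genome: the RefSeq table of GRCm38.p6, the assembly of the mm10 build named in the submitters' processing notes, lists 16 Asp-GTC genes on 6 chromosomes, 14 Gly-GCC genes on 7 and 13 Ala-AGC genes on 5. The mitochondrial tRNAs are single genes. The table places TrnS1, the serine tRNA read by mt-Ser-TGA, at positions 6870 to 6938 of MT, and TrnS2, read by mt-Ser-GCT, at 11613 to 11671.

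Long 5′ fragments took a smaller mean share of the high fat diet libraries, and internal fragments a larger one, with overlap between the groups in both. Nuclear 5′ fragments of 28 to 36 bases made up 8.76, 14.2 and 17.8% of tRNA reads with the normal diet and 9.59, 6.89 and 12.6% with the high fat diet. Normal diet replicate 1 lay among the high fat diet samples, and the groups overlapped. The means were 13.6 ± 4.54 against 9.71 ± 2.88 (SD, n = 3 each) percent, and the exact two-sided permutation test over the 20 partitions of 6 samples gave p = 0.3, where the smallest p that 3 against 3 can give is 0.1 (adjusted p = 0.7 over 14 shares). Nuclear internal fragments made up 32.9, 27.2 and 27.4% with the normal diet and 36.9, 33.3 and 32.4% with the high fat diet (exact permutation p = 0.2, adjusted 0.7). Only normal diet replicate 1 reached the high fat diet range. By length, internal reads of 14 to 17 and of 36 bases were higher with no overlap, and those of 27 and 40 bases were lower. All other lengths overlapped. At 14 bases, the shortest length in the files, internal reads went from 5.67 ± 1.47 to 7.40 ± 0.871 percent (SD, n = 3 each). Of the 14 shares, 2 had groups that did not overlap, each at the smallest p of 0.1 (exact permutation, adjusted p = 0.7). Reads whose last base alone differs from the reference went from 16.6 ± 0.980 to 18.9 ± 0.912 percent, and leaders, cut from the 5′ end of precursors, went from 0.470 ± 0.0422 to 0.392 ± 0.0149 percent (SD, n = 3 each).

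**Figure D1:**
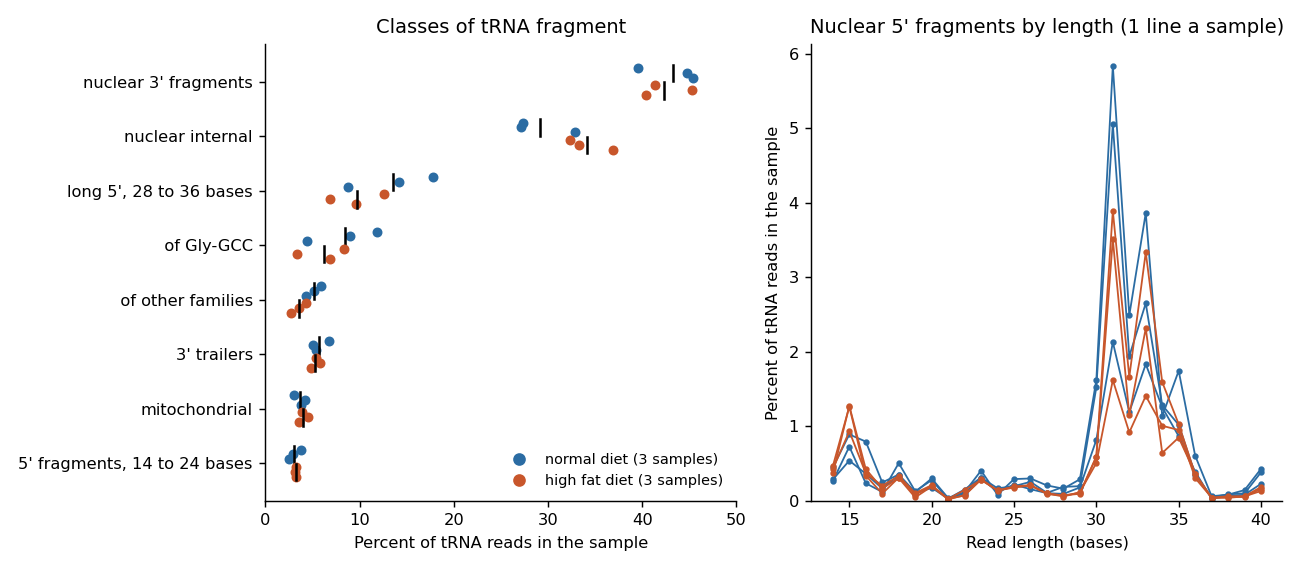
Left, percent of tRNA reads (x axis) in each class of fragment (y axis), 1 point a sample with the group mean as a black bar; right, percent of tRNA reads (y axis) in nuclear 5′ fragments of each read length in bases (x axis), 1 line a sample. The 5′ fragments peak at 31 and 33 bases in all 6 samples, and at 30 bases the 3 high fat diet lines lie below the 3 normal diet lines.

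Gly-GCC, a glycine tRNA and the main source of long 5′ fragments, did not separate the groups, and all other families summed together did. Gly-GCC gave 64.4% of them, and its long 5′ fragments made up 4.43, 9.04 and 11.8% of tRNA reads with the normal diet and 6.85, 3.33 and 8.38% with the high fat diet, with overlap of the groups. Long 5′ fragments of all other families together made up 4.33, 5.18 and 5.93% with the normal diet and 2.75, 3.56 and 4.27% with the high fat diet. There every high fat diet sample lay below every normal diet sample, with means of 5.14 ± 0.799 against 3.53 ± 0.761 (SD, n = 3 each). This split was chosen after the values were seen and was given no test. By length, 3 of the 9 lengths from 28 to 36 bases (33.3%) had every high fat diet sample below every normal diet sample, namely 28, 29 and 30 bases. The share was no larger there than at other 5′ lengths, where 8 of 18 (44.4%) were lower, or than over all 27 lengths, where 11 (40.7%) were. Fragments of 30 bases made up 0.818, 1.53 and 1.62% with the normal diet and 0.590, 0.507 and 0.594% with the high fat diet. Fragments of 31 bases, the commonest length, made up 2.13, 5.06 and 5.84% with the normal diet and 3.51, 1.62 and 3.89% with the high fat diet and overlapped.

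By family, 9 of the 11 families with at least 100 long 5′ reads had a lower mean on the high fat diet, and in 2 of the 11 (18.2%), Pro-AGG/Pro-CGG/Pro-TGG and Glu-TTC, the groups did not overlap, while in 1, Gly-CCC, they did not overlap in the other direction. Over all families and origins 14.3% of sums were lower with no overlap, close to that share. In counts per 1000000 tRNA reads (CPM), unscaled, long 5′ fragments of proline tRNA stood at 1628, 4862 and 2386 with the normal diet and 775, 709 and 743 with the high fat diet. The 3 high fat diet samples were close together and all below the lowest normal diet sample. Those of Glu-TTC stood at 5162, 5828 and 11169 with the normal diet and 2957, 3618 and 4751 with the high fat diet, with the groups apart by a small gap. Asp-GTC gave 18416, 19093 and 13492 with the normal diet and 8564, 13692 and 9569 with the high fat diet, where high fat diet replicate 2 reached the level of normal diet replicate 3. Gly-CCC ran the other way, at 1535, 1127 and 1108 with the normal diet and 1911, 2022 and 1801 with the high fat diet, with every high fat diet sample above every normal diet sample. Lys-CTT, at 5557, 4186 and 12985 with the normal diet and 4417, 6279 and 11212 with the high fat diet, differed more within each group than between them.

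No single fragment was called. Of 28240 sequences, 616 had enough reads to test, holding 67.6% of reads, and 0 (0%) passed an adjusted p of 0.05 in limma-voom, with a smallest adjusted p of 0.0814. At an unadjusted p under 0.05 there were 60 higher and 65 lower with the high fat diet, and limma on log2 values, as well as limma-voom with sample weights, also called 0. Groups did not overlap for 63 fragments higher with the high fat diet (10.2%) and for 89 lower (14.4%). To be tested, a fragment had to reach the filter level of 229 CPM in 3 libraries, and 25 of the 616 (4.06%) reached it in 1 group only, so that their difference was partly a condition of testing. They made up 6 of the 63 higher and 16 of the 89 lower fragments. Among the 73 tested long 5′ fragments 0 were higher and 17 were lower with no overlap, and 0 were up and 21 down at an unadjusted p under 0.05, 3 of which reached the level with the normal diet only. Their median log2 fold change was -0.48, against -0.04 over all 616. Among 229 internal fragments 33 were higher and 23 lower with no overlap, 3 and 6 of which reached the level in 1 group only, and the median was 0.21. Among 55 CCA fragments of 20 to 24 bases 14 were up, 2 of them reaching it with the high fat diet only, and 1 was down at an unadjusted p under 0.05 (median 0.16), while among 105 of 14 to 19 bases 3 were up and 11 down (median -0.08). The 18 short 5′ fragments of 14 to 24 bases had 2 up and 1 down, with a median of -0.07.

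Asp-GTC showed both sides of the anticodon loop. Asp-GTC is a tRNA that carries queuosine, a modified base made from a dietary and bacterial precursor, at the first anticodon position. Its 5′ fragment that stops at base 35 stood at 1892, 2648 and 1842 with the normal diet and 661, 869 and 1036 with the high fat diet, in CPM after scaling between libraries, the unit used from here on unless a value is said to be unscaled. All 3 high fat diet samples lay below all 3 normal diet samples, and the log2 fold change was -1.29 ± 0.28 (SE), not called (adjusted p = 0.0833). The fragment that stops at base 32 with C32T stood at 748, 771 and 674 with the normal diet and 161, 267 and 207 with the high fat diet, again with no overlap (log2 fold change -1.85 ± 0.35 (SE), adjusted p = 0.0814). With all variants of 1 start and 1 end merged, the Asp-GTC fragment from 1 to 32 gave 3186, 3645 and 3221 with the normal diet and 1281, 2041 and 1756 with the high fat diet. The internal Asp-GTC fragment from 32 to 53, which begins just before the anticodon, went the other way, at 505, 337 and 431 with the normal diet and 1423, 1086 and 1409.5 with the high fat diet with variants merged. The lowest high fat diet sample was above 2 times the highest normal diet sample. Its log2 fold change was 1.58 ± 0.28 (SE), the smallest p of the 528 merged forms tested, of which 0 (0%) were called (adjusted p = 0.0565), with 109 of them at an unadjusted p under 0.05. Other scalings, filters and tests called between 0 and 39 merged forms.

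All Asp-GTC 5′ fragments together stood at 21509, 21682 and 21885 with the normal diet and 11906, 17466 and 13449 with the high fat diet. The normal diet samples were within a few percent of each other and all above the high fat diet samples, and the log2 fold change of -0.64 ± 0.18 (SE) was not called (adjusted p = 0.0698). All Asp-GTC internal fragments together gave 17304, 8897 and 11623 with the normal diet and 17631, 14666 and 15885 with the high fat diet and overlapped. Internal reads that start at base 32 accounted for 27.5% of these, and in unscaled CPM stood at 4395, 1996 and 2027 with the normal diet and 5859.6, 5002 and 5494 with the high fat diet, with no overlap, while reads that start at bases 16, 17 and 18 overlapped between the groups.

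**Figure D2:**
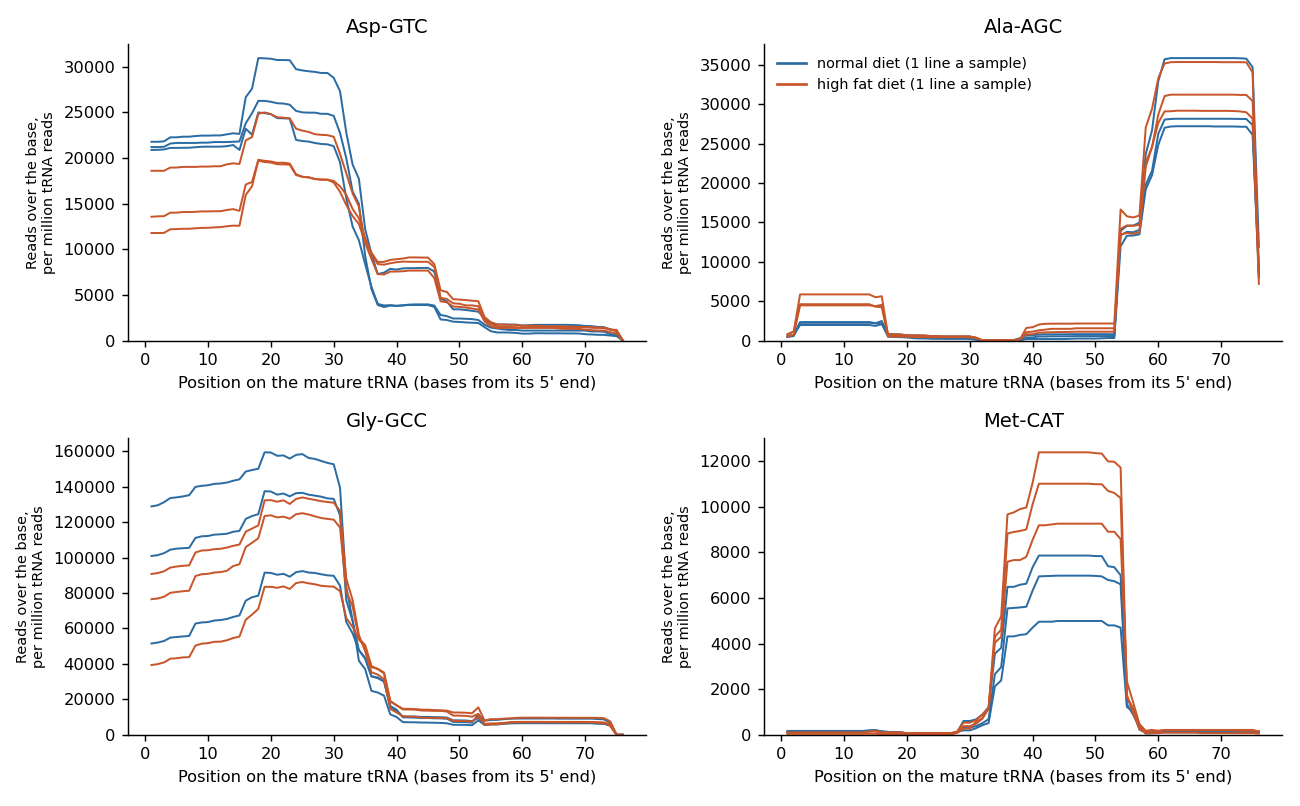
Reads over each base in unscaled CPM (y axis) by position on the mature tRNA from its 5′ end (x axis) for 4 families, 1 line a sample. In Asp-GTC the high fat diet lines start at 11773 to 18588 and the normal diet lines at 20871 to 21764, and in Ala-AGC and Met-CAT the high fat diet lines lie above the normal diet lines over bases 3 to 16 and bases 36 to 54.

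The ratio of 5′ to internal fragments was lower with no overlap in some families with the high fat diet and overlapped in the others. Of 20 families with at least 100 reads of each kind, 14 had a lower and 6 a higher mean log2 ratio with the high fat diet. Of the 20 families, 6 (30%) had every high fat diet sample below every normal diet sample, and 0 had the reverse. These were Pro-AGG/Pro-CGG/Pro-TGG, Glu-TTC, Asp-GTC, Ser-GCT, Ala-AGC and Val-AAC/Val-CAC, and the median difference over the 20 families was -0.34 on the log2 scale. In Ala-AGC 61.4% of the internal reads started at base 3 and 5.82% at base 2, so most lack only the first bases of the tRNA. The Ala-AGC 5′ fragments themselves were not lower in mean (log2 fold change 0.37 ± 0.29 (SE)). In Asp-GTC the log2 ratio went from 0.84 ± 0.49 to -0.18 ± 0.41 (SD, n = 3 each), from more 5′ than internal reads to slightly fewer. In Glu-TTC it went from 1.20 ± 0.48 to 0.15 ± 0.36. In each of these 6 families the exact permutation p was 0.1, the smallest possible, so no adjusted value could pass 0.05. The families share the 6 libraries and are not independent of each other. In Gly-GCC the ratio overlapped, with 0.04, 1.17 and 1.73 against 0.37, -0.53 and 0.75. In Tyr-GTA the mean was higher with the high fat diet, by 0.69, with overlap.

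**Figure D3:**
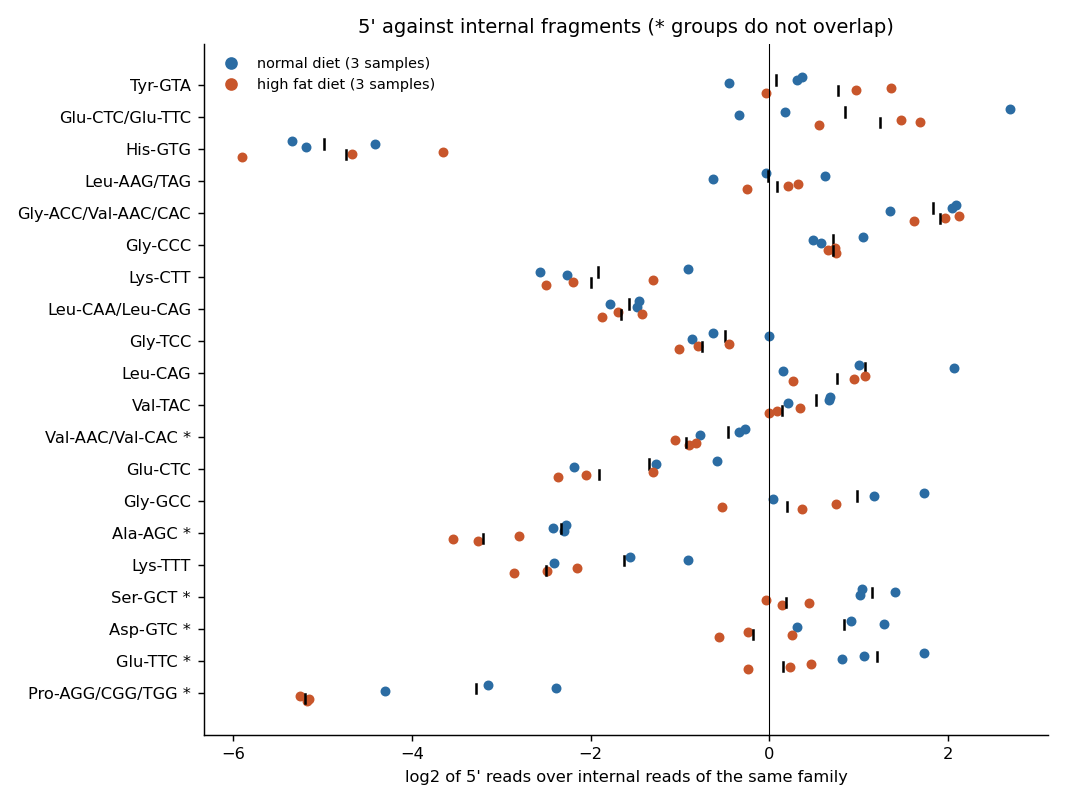
log2 of 5′ reads over internal reads (x axis, 0 means equal) in 20 tRNA families (y axis), ordered by the difference between diets, 1 point a sample with the group mean as a black bar. The 6 families marked with an asterisk have all 3 high fat diet points to the left of all 3 normal diet points.

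When reads were summed by origin within a family, 3 of 154 sums were called (1.95%): internal Ala-AGC and internal mt-Ser-TGA rose, and 5′ Pro-AGG/Pro-CGG/Pro-TGG fell. Ala-AGC is one of the tRNAs whose 5′ end begins with a run of guanines, and its internal fragments here mostly begin 2 bases in. Internal Ala-AGC stood at 2643, 2537 and 2701 with the normal diet and 7767, 5599.9 and 5384 with the high fat diet. The normal diet samples differed by only a few percent and every high fat diet sample was at about 2 times their level or above. The log2 fold change was 1.23 ± 0.21 (SE), with an adjusted p of 0.0111. Ala-AGC 3′ fragments had a log2 fold change of 0.03 ± 0.17 (SE), with overlap, and the 5′ fragments had one of 0.37 ± 0.29 (SE) with overlap. Reads starting at base 3 made up 61.4% of the internal reads and those starting at base 39 made up 14.3%. Both starts were higher in every high fat diet sample, and in unscaled CPM those at base 39 stood at 349, 161 and 317 with the normal diet and 1442, 922 and 585 with the high fat diet. The most abundant single form, from 3 to 16, stood at 902, 1508 and 1472 with the normal diet and 3646, 2873 and 3038 with the high fat diet (log2 fold change 1.32 ± 0.27 (SE), adjusted p = 0.0814, not called).

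Proline 5′ fragments stood at 1838, 5536 and 2889 with the normal diet and 929.9, 1000.0 and 894 with the high fat diet. The high fat diet samples were tight and below all normal diet samples, which varied by 3 times among themselves. The log2 fold change was -1.69 ± 0.36 (SE) with an adjusted p of 0.0357. The fall was in the fragments ending at bases 30, 31 and 32, each with no overlap. The form from 1 to 32 held 12, 21 and 47 reads with the normal diet and 3, 2 and 3 with the high fat diet, at 264, 704 and 528 with the normal diet and 53.6, 66.8 and 69.04 with the high fat diet. It was tested only because the normal diet samples were high, since no high fat diet sample reached the filter level, and its difference adds no support to that of the sum. Proline internal fragments, which are far more abundant, stood at 36584, 29029.6 and 25648 with the normal diet and 33894, 36132 and 34606 with the high fat diet and overlapped.

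mt-Ser-TGA is a serine tRNA of the mitochondrial genome. Its internal fragments held 11, 14 and 17 reads with the normal diet and 62, 26 and 27 with the high fat diet, or 253, 461 and 188 with the normal diet and 1130.4, 867 and 603 with the high fat diet. Every high fat diet sample was higher, and the log2 fold change was 1.65 ± 0.37 (SE) (adjusted p = 0.0362). These reads begin mostly within the first few bases, at base 2 for 22.3% and at base 3 for 17.8% of the sum, so they are 5′ fragments short of their first bases. The mt-Ser-TGA fragments that keep the first base were lower in mean, at 4642, 6030.0 and 2169.7 with the normal diet and 2060.3, 2667 and 2167 with the high fat diet, with overlap through normal diet replicate 3 (log2 fold change -0.78 ± 0.33 (SE), adjusted p = 0.184). Its form from 1 to 21 stood at 2486, 3050.0 and 416 with the normal diet and 339.5, 501 and 276 with the high fat diet, high in normal diet replicates 1 and 2 only.

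The 3 calls depended on single samples and on the processing. Internal Ala-AGC was called in 15 of 17 alternatives, proline 5′ in 10 of 16 and internal mt-Ser-TGA in 7 of 16. Proline 5′ lost its call with the stricter filter, reads of 16 to 40 bases and reads without a mismatch. Internal mt-Ser-TGA lost its call with those 2 read subsets, limma on log2 values and sample weights. With the stricter filter internal mt-Ser-TGA was not tested. Without high fat diet replicate 1 no sum was called: internal Ala-AGC then had a log2 fold change of 1.07 and an adjusted p of 0.057 (range over its alternatives 0.000118 to 0.0576, the highest with reads of 16 to 40 bases). Proline 5′ lost its call without high fat diet replicate 1, 2 or 3 (adjusted p = 0.228, 0.0966 and 0.0576, range over alternatives 1.26e-05 to 0.228), and mt-Ser-TGA internal without normal diet replicate 1 or 3 or high fat diet replicate 1 or 2 (adjusted p = 0.0693, 0.0783, 0.228 and 0.0966, range 0.00132 to 0.228), while all 3 kept their direction in every alternative run.

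**Figure D4:**
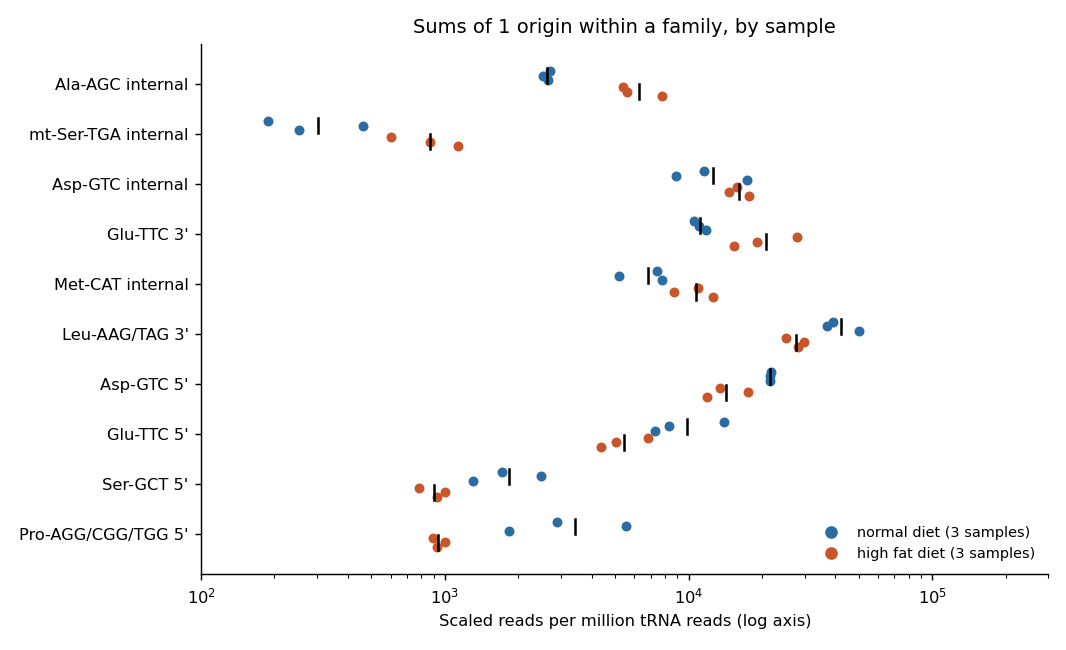
Scaled CPM (x axis, log scale) for 10 sums of 1 origin within a family (y axis), 1 point a sample with the group mean as a black bar. Asp-GTC and Glu-TTC 5′ fragments are lower with the high fat diet, while internal Ala-AGC and 3′ Glu-TTC are higher with no overlap.

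Over all 154 sums the groups did not overlap for 19 that were higher with the high fat diet (12.3%) and for 22 that were lower (14.3%). Of those 19, 2 reached the filter level with the high fat diet only, 1 of them a sum of 3′ fragments. Their difference was partly a condition of testing. By origin, 8 of 31 sums of 5′ fragments were lower and 3 higher with no overlap, with a median log2 fold change of -0.21. Of 58 internal sums 12 were higher and 4 lower, with a median of 0.16, and of 43 sums of 3′ fragments 7 were lower and 2 higher, with a median of -0.09. The 5′ fragments of Glu-TTC stood at 7285, 8337 and 13992 with the normal diet and 4376, 5033 and 6836 with the high fat diet (log2 fold change -0.88 ± 0.27 (SE), adjusted p = 0.083) and those of Ser-GCT at 1309.9, 2471 and 1716 with the normal diet and 929.9, 1000.0 and 782 with the high fat diet (log2 fold change -0.95 ± 0.28 (SE), adjusted p = 0.0698). Both had no overlap and neither was called. The Glu-TTC form from 1 to 29 gave 615, 911 and 1191 with the normal diet and 249, 428 and 300.4 with the high fat diet with variants merged, the Gly-GCC form from 1 to 31 gave 6445, 20545 and 27253 with the normal diet and 10847, 3475 and 12727 with the high fat diet, and the Gly-GCC form with C30T gave 836, 1709 and 1674 with the normal diet and 465, 267 and 460.3 with the high fat diet. The last of these separated the groups (log2 fold change -1.71 ± 0.38 (SE), adjusted p = 0.0833, not called), whereas the more abundant form to base 31 overlapped.

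Whole families were summed next, and 6 of 74 were called (8.11%), 3 in each direction, 1 of which reached the filter level in the high fat diet samples only. Leu-AAG/Leu-TAG, leucine tRNAs read almost wholly from their 3′ ends, fell by 0.59 ± 0.16 (SE) on the log2 scale: it stood at 50625, 39135 and 43938 with the normal diet and 29806, 32268 and 26664 with the high fat diet (adjusted p = 0.0114). Every high fat diet sample was below every normal diet sample. The 3′ fragments of Leu-AAG/Leu-TAG, 93.6% of its reads, were not called as a sum of 1 origin. Its fragment from 68 to 85, of 18 bases and among the 10 most abundant of all, stood at 19863, 15920.2 and 17401 with the normal diet and 10329, 10491 and 9344 with the high fat diet with a log2 fold change of -0.82 ± 0.20 (SE) (adjusted p = 0.0976, not called by itself). Ser-AGA/Ser-TGA, serine tRNAs, stood at 3334, 4654 and 4608 with the normal diet and 2146, 2828 and 2619 with the high fat diet, with a log2 fold change of -0.72 ± 0.20 (SE) (adjusted p = 0.0114). Both its 5′ and its 3′ fragments were lower with no overlap, and neither sum was called. Glu-CTC, a glutamate tRNA, stood at 37179.8, 32547 and 40508 with the normal diet and 28057, 23034 and 27201 with the high fat diet, with a log2 fold change of -0.48 ± 0.16 (SE) (adjusted p = 0.0403). Its 5′ fragments had a log2 fold change of -0.96 ± 0.31 (SE) and its internal fragments one of -0.33 ± 0.19 (SE). Both sums overlapped between the groups and neither was called (limma-voom adjusted p = 0.083 and 0.385).

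Of the families called higher, Met-CAT and Lys-CTT/Lys-TTT were read from internal fragments. Met-CAT, the elongator methionine tRNA, stood at 7749, 5408 and 7923 with the normal diet and 12586, 9234 and 11194 with the high fat diet, with a log2 fold change of 0.65 ± 0.19 (SE) (adjusted p = 0.0126). Its reads were 97.3% internal, and the internal sum was not called. Of the internal reads 75.3% ended at base 54. The commonest starts were base 36 and base 34, the first base of the anticodon. The form from 36 to 54 stood at 1342, 972 and 1618 with the normal diet and 2162, 1437 and 2209 with the high fat diet. That from 34 to 54 stood at 990, 838 and 843 with the normal diet and 1876, 702 and 1082 with the high fat diet. Both forms overlapped between the groups and neither was called (limma-voom adjusted p = 0.330 and 0.589). Internal reads ending at base 54 stood, in unscaled CPM, at 5394, 3509.6 and 5268 with the normal diet and 9988, 6314 and 8803 with the high fat diet, with no overlap, while those ending at bases 55 and 56 overlapped. Lys-CTT/Lys-TTT, reads shared by the lysine tRNAs, stood at 795, 885 and 926 with the normal diet and 1406, 1329 and 1858 with the high fat diet with a log2 fold change of 0.80 ± 0.23 (SE) (adjusted p = 0.0114), and were almost all internal, starting at bases 12 to 15. With reads of 14 and 15 bases left out, that log2 fold change was 0.39 and not called (adjusted p = 0.443, range over alternatives 0.00701 to 0.443). Internal reads made up 98.8% of Lys-CTT/Lys-TTT, and their sum was not called. Of the Lys-CTT/Lys-TTT reads 79.4% carried a mismatch, and with mismatched reads left out this family was not tested. Gly-CCC/Gly-GCC/Gly-TCC held only 3, 5 and 17 reads with the normal diet and 19, 11 and 17 with the high fat diet, 95.8% of them with a mismatch. No normal diet sample reached the filter level, so this family was tested only because the high fat diet samples were high, and it could not be tested with the stricter filter or with any 1 high fat diet sample left out. Its log2 fold change was 1.39 ± 0.40 (SE) (adjusted p = 0.0114), and with no filter the call was lost (adjusted p = 0.0757).

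The family calls also rested on single samples. Leaving out normal diet replicate 1 or high fat diet replicate 3 left 0 families called (smallest adjusted p 0.0595 and 0.227), leaving out high fat diet replicate 1 left 1 and leaving out high fat diet replicate 2 left 4, while leaving out normal diet replicate 2 or 3 gave 8 and 6. Of those 8 and 6, only 5 and 4 were among the 6 called with all samples. Met-CAT lost its call without normal diet replicate 2, and Ser-AGA/Ser-TGA and Glu-CTC lost theirs without normal diet replicate 3. Glu-CTC lost its call in 14 of 17 alternatives (adjusted p 0.0116 to 0.365), and each of the 6 kept its direction in all that could be run.

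**Figure D5:**
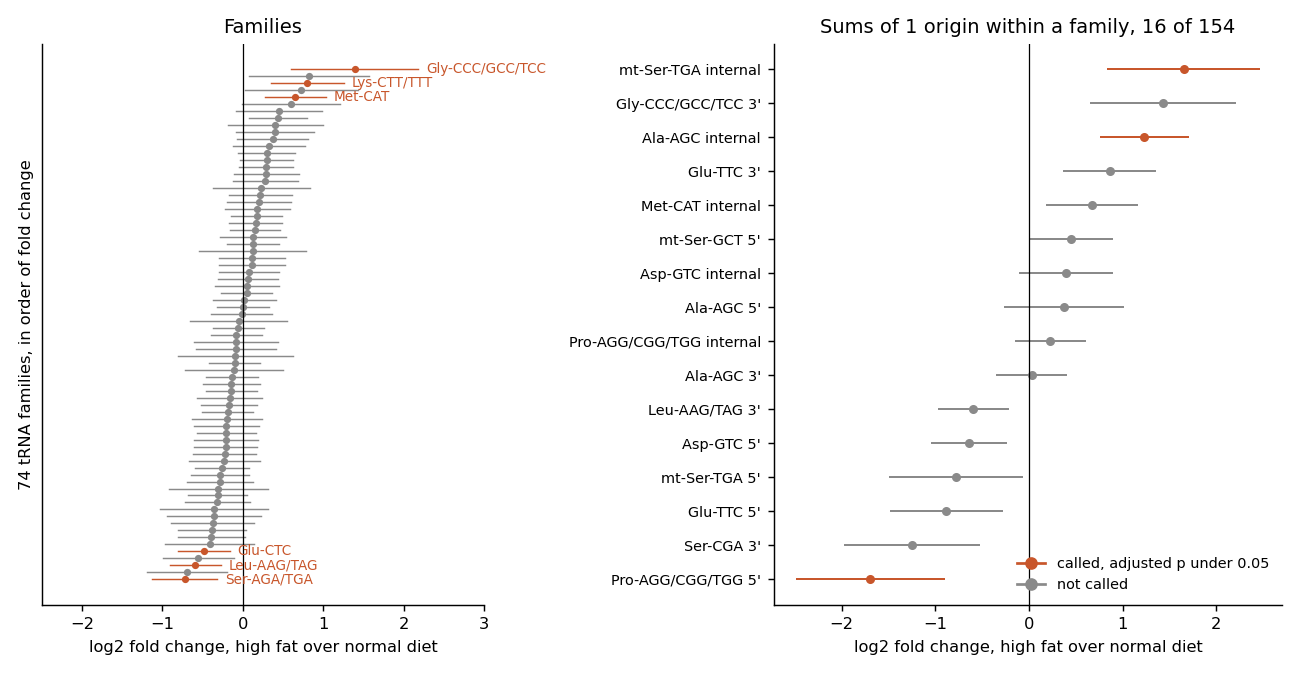
log2 fold change of high fat over normal diet (x axis) with its 95% confidence interval from limma-voom, for 74 families in order of fold change (left) and 16 of the 154 sums of 1 origin within a family (right, y axis); orange marks an adjusted p under 0.05. The 6 called families lie at both ends of the order, between -0.72 and 1.39, the highest of which passed the filter through the high fat diet samples only.

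Fragments that end in CCA came in 2 main lengths, 18 bases and 22 bases, which begin on either side of an A within the T-loop. Those of 22 bases made up 12.7, 16.6 and 13.5% of tRNA reads with the normal diet and 14.2, 18.7 and 17.2% with the high fat diet and those of 18 bases 13.8, 10.6 and 9.72% with the normal diet and 9.999, 9.89 and 8.97% with the high fat diet. The number of 22-base fragments for each 100 of 18 bases was 92.1, 156 and 139 with the normal diet and 142, 189 and 192 with the high fat diet, a ratio that was higher in high fat diet replicates 2 and 3 than in any normal diet sample but not in replicate 1. The Glu-TTC form of 22 bases, from 54 to 75, stood at 9425, 8842 and 9322 with the normal diet and 12935, 16296 and 26388 with the high fat diet with variants merged, with every high fat diet sample higher and replicate 3 highest. Its log2 fold change was 0.94 ± 0.26 (SE) (adjusted p = 0.0945, not called). Its variant with A75G stood at 329.9, 369 and 281 with the normal diet and 894, 768 and 1174 with the high fat diet (log2 fold change 1.56 ± 0.31 (SE), adjusted p = 0.0814, not called). With the 5′ fragments of the same tRNA lower and its 3′ fragments higher, the 2 ends of Glu-TTC differed in direction. The form from 61 to 76 of Gly-ACC/Val-AAC/Val-CAC, of 16 bases, stood at 6964, 9213 and 7451 with the normal diet and 4074, 5366 and 4044 with the high fat diet (log2 fold change -0.81 ± 0.22 (SE), adjusted p = 0.0945).

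The 3 most abundant fragments were 3′ fragments of glycine and alanine tRNAs, and their groups overlapped. The Gly-CCC/Gly-GCC form from 53 to 74 stood at 16783, 26243 and 30668 with the normal diet and 24304, 34414 and 33624 with the high fat diet, with a log2 fold change of 0.35 ± 0.26 (SE). Its A56T form stood at 12758, 33282 and 15390.3 with the normal diet and 17281, 23154 and 18412 with the high fat diet, with a log2 fold change of 0.08 ± 0.33 (SE). The Ala-CGC/Ala-TGC form of 18 bases stood at 23800.2, 18333 and 15873 with the normal diet and 17495, 14868 and 15489 with the high fat diet, with a log2 fold change of -0.25 ± 0.22 (SE). A rarer form of the glycine fragment with the C73T substitution inside its CCA tail did separate the groups, at 154, 402 and 78.6 with the normal diet and 697, 535 and 967 with the high fat diet (log2 fold change 2.49 ± 0.50 (SE), adjusted p = 0.0814, not called). That form held only 7, 12 and 7 reads with the normal diet and 39, 16 and 42 with the high fat diet. Alanine fragments as a whole made up 10.8 ± 1.89 and 10.5 ± 0.653 percent (SD, n = 3 each) of reads with the normal and the high fat diet. Of 53 tested 5 were up and 5 down at an unadjusted p under 0.05, against 60 and 65 of all 616.

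The A56T form of the same glycine fragment carries its substitution at the T-loop A. In many tRNAs this A of the T-loop is methylated by TRMT6/TRMT61A, and reverse transcriptase can misread it. The share of reads over that A that carried another base was 19.1, 30.6 and 17.5% with the normal diet and 19.5, 21.1 and 15.6% with the high fat diet, and that base was T in 95.9% of cases. The groups overlapped, with normal diet replicate 2 standing apart. In Gly-CCC, the most often misread family, the shares were 64.5, 77.6 and 58.4% with the normal diet and 59.6, 63.8 and 49.3% with the high fat diet, and in Tyr-GTA they were 9.61, 21.2 and 12.8% with the normal diet and 20.2, 18.96 and 16.1% with the high fat diet. Normal diet replicate 2 had the highest share in 12 of 14 families, and without it the difference in the overall share went from -3.67 to 0.428 percentage points. Only Ser-GCT, 1 of the 14 (7.14%), had groups that did not overlap, at 1.65, 5.06 and 1.37% with the normal diet and 1.12, 1.29 and 0.935% with the high fat diet.

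Mitochondrial tRNAs and their precursor flanks gave 3.69 ± 0.591 and 3.97 ± 0.487 percent of reads (SD, n = 3 each) with the normal and the high fat diet. That share includes mt-Val-TAC, of whose 3319 reads 97.0% were counted as trailers. These trailers begin past the mature tRNA, so the reads need not come from a tRNA. Among mitochondrial fragments, the first 20 bases of mt-Ser-GCT, a mitochondrial serine tRNA that lacks the D-arm, stood at 132, 938 and 236 with the normal diet and 1394, 1437 and 1243 with the high fat diet. The high fat diet samples were tight and all above the normal diet samples, of which replicate 2 was high. The log2 fold change of 2.37 ± 0.48 (SE) was not called (adjusted p = 0.0814). Of 29 tested mitochondrial fragments 4 were up and 2 down at an unadjusted p under 0.05, against 60 and 65 of all 616.

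Trailers, nuclear and mitochondrial, made up 5.40, 5.04 and 6.79% of reads with the normal diet and 4.81, 5.77 and 5.33% with the high fat diet and did not separate the groups. Nuclear trailers alone, without those of mt-Val-TAC, made up 4.23, 3.95 and 5.56% with the normal diet and 4.05, 4.53 and 4.30% with the high fat diet, with overlap. The most abundant came from Arg-ACG, an arginine tRNA, whose trailer sum stood at 29943, 27086 and 44865 with the normal diet and 28734, 29533 and 31211 with the high fat diet, high in normal diet replicate 3 alone. Of 35 tested trailers, nuclear and mitochondrial, 2 were up and 3 down at an unadjusted p under 0.05, and 1 of those up reached the filter level in 1 group only. Over all 616 fragments 60 were up and 65 down at that threshold. The 4 tRNAs that can carry queuosine (Asp, Asn, His and Tyr) made up 10.3, 9.59 and 9.80% of reads with the normal diet and 10.7, 10.8 and 9.95% with the high fat diet. Of 82 tested fragments from these tRNAs 9 were up and 10 down at an unadjusted p under 0.05, against the same 60 and 65 of 616, and 0 were called.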

How the data were processed

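Per the labels' protocols, serum RNA was extracted with TRIzol and prepared with a tRF and tiRNA kit, including adapter ligation, PCR and gel size selection, for NextSeq 500 sequencing. The submitters' processing notes name FastQC, cutadapt, Bowtie, edgeR and mm10, without versions or roles. The deposited files list alignments with offsets, 1 file a library, and the authors wrote the count of each collapsed read into its name.

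Each read name was counted once per file, unadjusted. Shared reads, 31.4% of all, kept a joined family name. Because no column holds counts, limma-voom (limma 3.58.1, R 4.3.3) was the test, over these 6 libraries only, with trimmed-mean scaling computed from its definition (factors 0.923 to 1.08) and Benjamini-Hochberg adjustment at 0.05. Features needed 15 reads in all and, in at least 3 libraries, as many CPM as 10 reads give in a library of 43711, the median. The code was tested on simulated data. Shares were compared by exact permutation over samples. The rule for named features took, in each direction, those called or of smallest p, plus the 10 fragments with most reads and 2 per list with most reads. Other features, 5′ to internal ratios, length, start and end sums and the added shares were chosen after their values were seen. The members and lists were chosen with earlier results of these data known. Alternatives were other scalings, filters, read subsets, tests, a replicate block and each sample left out. Replicates of a group differed by more than counting noise (chi-square per degree of freedom 2.92 to 9.86), so none was merged.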

Additional observations from a re-analysis of the deposited data

How the results depend on the processing

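The counts of calls moved with the processing, and the cause was not tested. Against 0 fragments called, no filter gave 62, a stricter filter 3, reads without a mismatch 4 and single samples left out 0 to 2. Against 6 families, reads of 16 to 40 bases gave 3, reads of 1 family 1, reads without a mismatch 1 and single samples left out 0 to 8. Against 3 origin sums, RLE factors gave 5, total counts 5, no filter 10, reads of 16 to 40 bases 0, reads without a mismatch 1 and single samples left out 0 to 5. Against 0 merged forms, RLE factors gave 3, total counts 8, no filter 39, the stricter filter 19, reads of 16 to 40 bases 4, reads without a mismatch 3, limma on log2 values with pseudocounts of 1 and 5 gave 2 and 3, sample weights 4 and single samples left out 0 to 5. With the replicate number as a block, 18 origin sums, 7 families and 0 fragments were called. The labels do not pair the samples, and same-numbered samples correlated at -0.0169, 0.0777 and 0.202, so the block is not used above.

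No called feature changed direction. Some differences in share, high fat minus normal diet in percentage points, changed sign: with reads of 16 to 40 bases short 5′ -0.336, 3′ 0.714; with reads of 1 family short 5′ -0.143, 3′ 0.876, glycine -1.73, alanine 0.726; without mismatched reads precursor body -0.0154, 10 most abundant 0.193; with distinct sequences short 5′ -0.0906, 3′ 0.0284, precursor body -0.00740, 10 most abundant 0.00411, alanine 0.0965. With single samples left out they ran from short 5′ -0.104 to 0.530, 3′ -2.76 to 0.193, glycine -1.76 to 2.64, alanine -0.971 to 0.806, mitochondrial -0.0423 to 0.540, trailer -0.794 to 0.0803, precursor body -0.0252 to 0.0794, other mismatch -0.753 to 3.00. Among named fragments with small fold changes, gcgccgctggtgta (Gly-CCC, 1 to 14) went to -0.16 with no filter and -0.0078 with reads of 1 family, and tcgTttcccggccaatgcacca to -0.0958 with no filter. Over samples left out, log2 fold changes ran from -0.26 to 0.40 (gcgccgctggtgta), -0.22 to 0.41 (tcgTttcccggccaatgcacca), -0.51 to 0.15 (gggattgtgggttT), -0.36 to 0.047 (ttgggactggtactcctttatt), -0.30 to 0.050 (tctcggtggaacctCCA), -0.83 to 0.20 (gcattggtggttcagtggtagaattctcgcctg) and -0.26 to 0.0074 (ttccggctcgaaggaCCA). The T-loop share, an alternative added after the data were seen, ran from -6.14 to 0.428.

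Depth limits the rare forms: 28191 to 94724 tRNA reads a library left 616 of 28240 sequences with enough reads to test.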

Other observations

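Other tRNAs had groups that did not overlap without passing the adjusted threshold. Lys-TTT, a lysine tRNA, differed by origin: in scaled CPM its internal fragments stood at 7492, 5338 and 6077 with the normal diet and 9864, 8333 and 11930.2 with the high fat diet (log2 fold change 0.68 ± 0.21 (SE), limma-voom adjusted p = 0.083), and its leader at 1379, 1516 and 1605 with the normal diet and 929.9, 1000.0 and 849 with the high fat diet (log2 fold change -0.70 ± 0.23 (SE), adjusted p = 0.083). Internal Lys-CTT, the more abundant lysine family, stood at 32494, 31303 and 31050.3 with the normal diet and 30722, 31366 and 30697 with the high fat diet, nearly level in all 6 samples. The 3′ fragments of Ser-CGA stood at 597, 428 and 454 with the normal diet and 146, 267 and 201 with the high fat diet (log2 fold change -1.25 ± 0.33 (SE), adjusted p = 0.0603) and those of Ile-AAT at 1678, 1615 and 1417 with the normal diet and 1039, 1033 and 737 with the high fat diet (log2 fold change -0.74 ± 0.24 (SE), adjusted p = 0.083).

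Internal Gly-GCC fragments from base 18 to base 53, which span the anticodon arm, stood at 813, 1215 and 828 with the normal diet and 2331, 2732 and 1756 with the high fat diet (log2 fold change 1.27 ± 0.28 (SE), limma-voom adjusted p = 0.0674), while the long 5′ form of the same tRNA to base 30 stood at 4174, 9078 and 12702 with the normal diet and 3007, 1613 and 3813 with the high fat diet (log2 fold change -1.56 ± 0.41 (SE), adjusted p = 0.0945). Both forms were chosen after their values were seen.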
